A study of Mus musculus with 9 samples.

Results

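The genes described here are 10 brakes on cytokine and Toll-like receptor signalling in mouse plasmacytoid dendritic cells (pDCs): *Socs1*, *Socs2*, *Socs3*, *Cish*, *Tnfaip3*, *Tnip1*, *Dusp1*, *Dusp2*, *Zfp36* and *Zc3h12a*. They were picked by gene symbol from 52550 genes with an expression value, of which 17664 had reads, and all 10 were found and had reads. Splenic pDCs of C57BL/6 mice with 3 *Ncf1* genotypes, WT (G/G), heterozygous knockin (G/A) and homozygous knockin (A/A, the p.R90H allele), were stimulated with the TLR7 and TLR8 ligand R848 for 12 hours, with 3 samples in each group. The cells had been sorted as CD11c-int SiglecH+ PDCA1+, and all 9 samples share the strain, the sort and the stimulus. Levels below come from 1 library, A/A replicate 1, and the remaining 8 samples were not analysed here. No difference between genotypes was therefore computed, no unstimulated level was set beside these values, and none of them has a replicate error. *Ncf1* itself had 1079 CPM (defined below), a level that does not check the allele, since the knockin changes a single residue.

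These brakes act on several steps between a receptor and the cytokines a cell releases. SOCS proteins are induced by STAT factors and bind cytokine receptors and Janus kinases, which shuts off the same STAT signal. A20, encoded by *Tnfaip3*, edits ubiquitin chains in the NF-κB pathway with the help of ABIN1, encoded by *Tnip1*. Dual-specificity phosphatases such as *Dusp1* and *Dusp2* remove the activating phosphates of MAP kinases in the nucleus. Tristetraprolin, encoded by *Zfp36*, and Regnase-1, encoded by *Zc3h12a*, promote the decay of cytokine mRNAs, the former through AU-rich elements and the latter as an endonuclease that cuts stem-loops. In pDCs, TLR7 feeds both the interferon arm and the NF-κB and MAP kinase arm, so these brakes meet in the same cell.

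The library held 31408298 reads assigned to genes, as recovered from the deposited values. Sequencing was paired-end, and whether 1 such read stands for a read or a pair is not given. Levels are given as CPM, the reads of a gene scaled to a total of 1000000, and, where genes are compared, as CPM per kilobase of annotated exon. Wilson 95% intervals, and the exact intervals of ratios, cover only the error of counting reads in 1 library, and no error between replicates. Amplified reads were not collapsed to molecules, which these intervals do not take into account. In such a bulk library, fewer cells of a type and less RNA per cell cannot be told apart. Ranks are percentiles among the genes with reads. All 12 pDC markers were above 10 CPM, with a median of 366 CPM, among them *Siglech* at 374 CPM and *Bst2* at 1657 CPM. Of 8 conventional DC markers 4 were above 10 CPM, *Ccl22*, *Fscn1*, *Zbtb46* and *Clec9a*, and *Cd209a* was listed at 0. The 5 B cell markers were at 3.69 CPM or below. Of 5 T cell markers 4 were listed at 0 and *Cd4* had 19.5 CPM, and 1 of 4 NK cell markers had reads. Of 7 macrophage or monocyte markers 5 were above 10 CPM (median of the 7, 25.1 CPM), the highest being *Cd68* at 298 CPM. Of 5 neutrophil markers 1 was above 10 CPM, *S100a8*, and no erythroid marker was. The study's methods describe female mice, but the Y-linked *Ddx3y* had 102 CPM and *Xist* was listed at 0. The part of any of this in the levels below was not tested.

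Together the 10 brakes held 59135 reads, or 1883 CPM. Most were well expressed. A level above 10 CPM was found in 8 of the 10, or 80.0%, against 44.4% of all genes with reads. Their median was 149 CPM, against 6.34 CPM over all genes with reads, and the median percentile was 93.2. *Zfp36* alone took 32.2% of the reads of the 10 genes and *Tnfaip3* took 18.7%. The 2 lowest, *Cish* and *Zc3h12a*, took 0.441% and 0.194%. Thus the brakes did not form 1 block of expression: *Zfp36* stood at percentile 98.6 and *Zc3h12a* at 43.8.

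**Figure D1:**
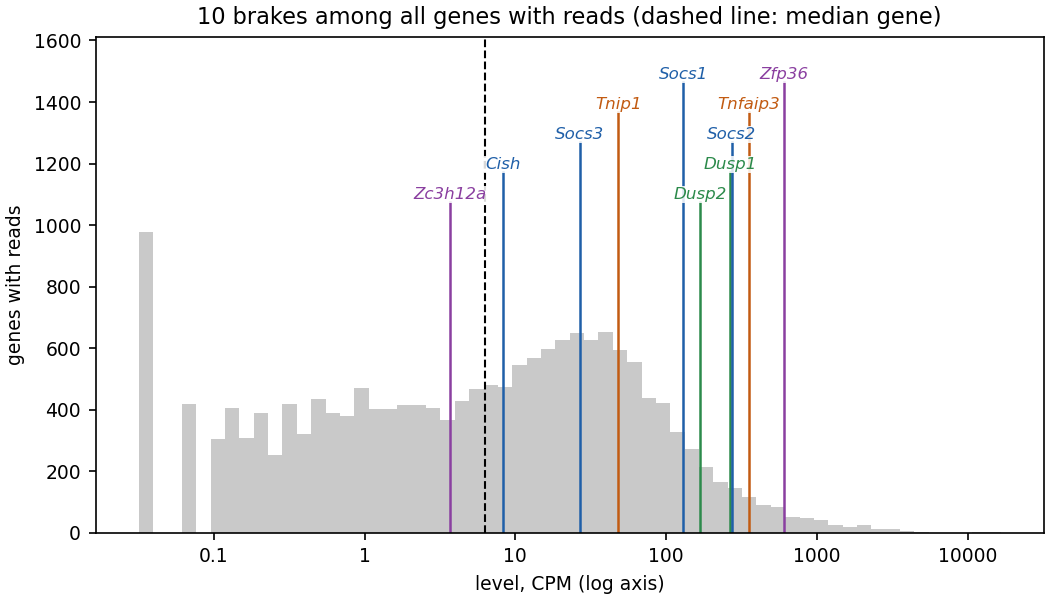
Distribution of the levels of all genes with reads in A/A replicate 1 (x axis, CPM on a log scale; y axis, number of genes), with a coloured line for each of the 10 brakes and a dashed line at the median gene (6.34 CPM). *Zc3h12a* is the only brake to the left of this median gene, and 6 brakes lie above 100 CPM. Among protein-coding genes with reads *Cish* was below the median as well, at percentile 35.6, and per kilobase it stood at 43.6.

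Per kilobase of exon the order was *Zfp36* (175), *Dusp2* (84.0), *Dusp1* (80.6), *Tnfaip3* (48.8), *Socs1* (44.6), *Socs2* (28.5), *Tnip1* (13.6), *Socs3* (9.23), *Cish* (1.29) and *Zc3h12a* (1.27). In this order the intervals of *Dusp2* and *Dusp1* overlapped, as did those of *Cish* and *Zc3h12a*, and no other neighbours did. Over all genes with reads the median on this scale was 1.90. Above percentile 90 of the genes with reads on this scale were 5 of the 10, and 8 were above percentile 75. The exon length used changed several of these values. The deposited coordinates of *Socs1* (chromosome 16, 10783808 to 10785536) stop short of the annotation used for the lengths, which extends to 10782240, and exons inside the deposited interval gave 96.9 CPM per kilobase in place of 44.6. The annotated *Dusp1* also reaches further, to 26562128, and its value inside the deposited interval was 99.0. *Socs2* has 14 annotated transcripts and a union of exons of 9531 bases. By its longest transcript, of 4242 bases, its level was 63.9 in place of 28.5, which was above the value of *Socs1* by the same measure. With the longest transcript *Socs1*, *Socs2*, *Tnfaip3*, *Dusp1* and *Dusp2* all changed place, so the order of these 5 genes rests on the gene model, while the other 5 kept their place.

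**Figure D2:**
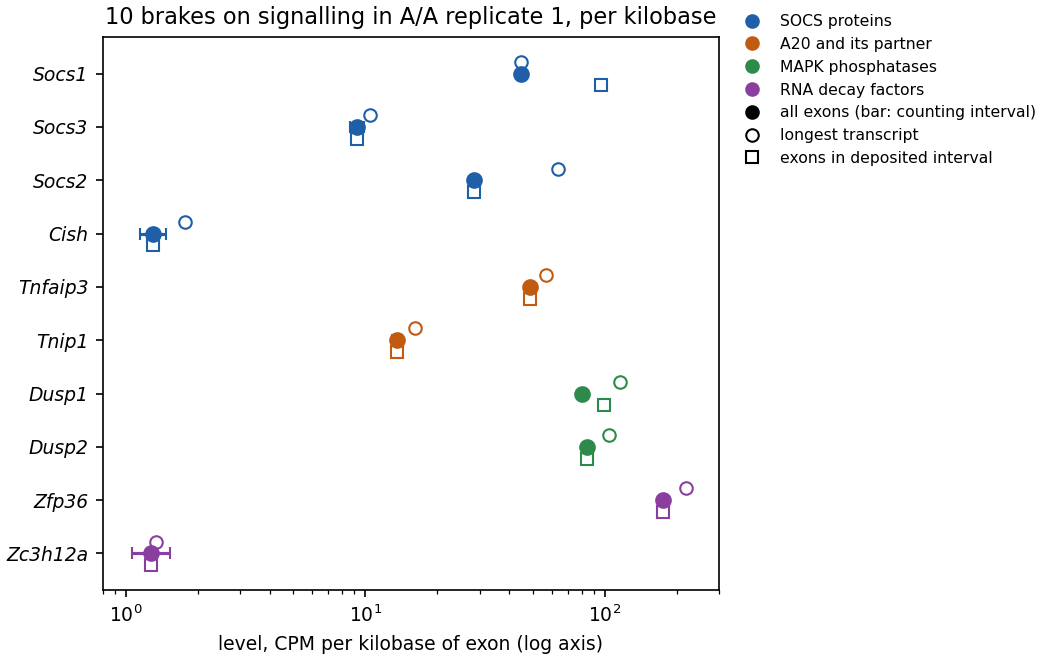
Level of each brake in CPM per kilobase of exon (x axis, log scale) in A/A replicate 1, coloured by role. Filled circles use all annotated exons, with bars for the Wilson counting interval, open circles use the longest transcript, and open squares use the exons inside the deposited interval. *Zfp36* is the highest and *Cish* and *Zc3h12a* are the lowest by all 3 measures, while *Socs1* and *Socs2* change places.

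The SOCS proteins ranged widely. *Socs1* (ENSMUSG00000038037.4), which blocks the kinase activity of JAK1, JAK2 and TYK2 downstream of interferon receptors, had 4078 reads (130 CPM, interval 126 to 134) and stood at percentile 92.3. *Socs2* (ENSMUSG00000020027.18, chromosome 10, 95385362 to 95417180), best known as a brake on growth hormone signalling, had 8517 reads and ranked at percentile 96.4, with a level of 271 CPM (265 to 277). In contrast, *Socs3* (ENSMUSG00000053113.3, chromosome 11, 117966079 to 117970047), which restrains receptors that signal through gp130, had 838 reads and ranked at percentile 70.8, with a level of 26.7 CPM (24.9 to 28.5). *Cish* (ENSMUSG00000032578.7, chromosome 9, 107296026 to 107302784), a STAT5 target that limits signalling of the interleukin 2 type, had 261 reads and ranked at percentile 53.3, with a level of 8.31 CPM (7.36 to 9.38). Per kilobase, *Socs1* was 4.84 times the level of *Socs3* (exact Clopper-Pearson interval, 4.49 to 5.22) and 34.5 times that of *Cish* (30.4 to 39.2). Both ratios rest on the length taken for *Socs1*, since the exons inside its deposited interval gave 96.9 against 9.23 for *Socs3* and 1.29 for *Cish*. For *Cish*, 11.5% of exon bases lie opposite exons of other genes, and 9.35% of its 50-base windows occurred in transcripts of other genes. For *Socs2* the shared windows were 4.58%, and for *Socs1* and *Socs3* there were 0. Conventional DC markers were of mixed level in this library, with 4 of the 8 above 10 CPM and a list median of 38.1 CPM. *Ccl22* had 1347 CPM and *Fscn1* 428 CPM, while *Clec10a* had 2.36, *Xcr1* 1.72 and *Batf3* 1.53 CPM, and *Cd209a* was listed at 0. The part of conventional DCs in the level of *Socs2* was not tested.

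All 8 genes of the SOCS family had reads. *Socs1*, *Socs2* and *Socs3* were the 3 highest per kilobase. *Socs6* followed at 3.66, *Socs4* at 2.95, *Socs7* at 1.36 and *Socs5* at 1.23. *Cish* lay between *Socs7* and *Socs5*, and its interval overlapped those of both. By the longest transcript *Cish* had 1.77, above *Socs5* at 1.69 and *Socs7* at 1.41, and *Socs2* was above *Socs1*. Over all exons *Cish* and *Socs1*, both feedback genes of cytokine receptors, lay near opposite ends of the family order.

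Among the SOCS genes, *Socs1* had promoter letters that interferon-induced complexes bind, and *Socs3* and *Cish* had letters that STAT factors bind. RefSeq promoters (GRCm38.p6, 250 bases before to 50 after the start site) were found for 9 of the 10 brakes. *Socs2* was not matched. The interferon-stimulated response element was searched as GAAANNGAAA and the STAT site as TTCNNNGAA, both on either strand. *Socs1* held 2 overlapping matches to the first, which 3.44% of all 32851 promoters of this length contain. *Socs3* held 1 match to the STAT site and *Cish* held 2, just at its start site, and 8.30% of all promoters have at least 1. The windows are shown because they set the interferon type letters of *Socs1* beside the STAT type letters of the other pair. Capitals mark the match, and all read in the direction of transcription.
*Socs1*, chr16:10785600-10785629, minus strand: agacttgccgGAAAGAGAAAccgaaagcgg
*Socs1*, chr16:10785594-10785623, minus strand: gccggaaagaGAAACCGAAAgcgggggtgg
*Socs3*, chr11:117969501-117969530, minus strand: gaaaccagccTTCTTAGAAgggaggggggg
*Cish*, chr9:107296649-107296678, plus strand: ccgcccagttTTCCTGGAAagttcttggaa
*Cish*, chr9:107296660-107296689, plus strand: tcctggaaagTTCTTGGAAatctgtcaaag

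A match is a description of the letters and not a site shown to be bound. *Tnip1* and *Zfp36* each held 1 match to the STAT site as well, so brakes with these letters included the highest of the 10 per kilobase, *Zfp36*, and the low *Cish*.

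The genes on which SOCS proteins act ranged from abundant to not detected. All 11 Janus kinases and STAT factors were above 10 CPM, with a median of 63.0 CPM per kilobase. *Stat2*, which transmits type I interferon signals, had 189, *Stat3* had 108, *Jak2* had 98.3, and *Jak3* was the lowest at 6.25. Of 19 receptor chains 17 had reads and 15 were above 10 CPM, with a median of 23.0 CPM per kilobase. *Il2rg*, the common gamma chain, was the highest at 882, and *Ifnar2* had 122 and *Ifnar1* 94.7, the chains of the type I interferon receptor. Some receptors of the list were low, among them the one on which *Socs2* is best known to act. *Ghr*, the growth hormone receptor, had 32 reads (0.113 CPM per kilobase), *Prlr* had 85 reads (0.176), and *Epor* and *Lepr* were listed at 0, which at the floor of 3 reads allows up to 0.0955 CPM.

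*Tnfaip3* and *Tnip1* are partners in the same complex but differed in level. *Tnfaip3* (ENSMUSG00000019850.11, chromosome 10, 19000910 to 19015657) had 11076 reads and ranked at percentile 97.3, with a level of 353 CPM (346 to 359). *Tnip1* (ENSMUSG00000020400.17, chromosome 11, 54910785 to 54962917) had 1508 reads and ranked at percentile 80.5, with a level of 48.0 CPM (45.6 to 50.5). Per kilobase *Tnfaip3* was 3.60 times the level of *Tnip1* (exact interval, 3.41 to 3.80). None of their exon bases overlapped exons of other genes, and none of their 50-base windows was shared.

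Both genes had promoter matches to the κB consensus of NF-κB, named here without its letters because it needs ambiguity codes. *Tnfaip3* has 2 start sites in the RefSeq table, and all of its matches lay at 1 of them. It had 2 separate matches there, and *Tnip1* had 3 that overlap each other around 1 palindrome. At least 1 match occurs in 4.51% of all promoters of this length. No other brake of the 9 with a promoter held one. *Tnfaip3* also held the AP-1 letters TGACTCA, which 5.20% of all promoters hold on either strand. These windows are shown because *Tnfaip3* and *Tnip1*, the 2 brakes of the NF-κB pathway, were the 2 with κB letters, again in capitals and in the direction of transcription. Of the 3 overlapping matches of *Tnip1* the middle one is given.
*Tnfaip3*, chr10:19015516-19015545, minus strand: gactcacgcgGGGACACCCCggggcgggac
*Tnfaip3*, chr10:19015403-19015432, minus strand: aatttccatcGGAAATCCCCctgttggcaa
*Tnip1*, chr11:54962978-54963007, minus strand: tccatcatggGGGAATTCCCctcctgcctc

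Among 13 genes of ubiquitin editing and its partners, 12 had reads and were above 10 CPM, and *Rnf125* was listed at 0. *Usp18*, the protease that removes ISG15 and a brake on the type I interferon receptor, was the highest at 1037 CPM per kilobase. *Trafd1*, an interferon-induced inhibitor of TLR signalling, was next at 157. *Otulin*, which cuts linear ubiquitin chains, had 50.1 and *Tnfaip3* 48.8, with overlapping intervals, and *Tax1bp1*, an adaptor of A20, had 24.4. By the longest transcript these 3 genes were close together, *Tax1bp1* at 57.4 and the other pair at 56.9 each. *Tnip1* was seventh, below its relative *Tnip2* (18.0) and above *Tnip3* (11.3). By the longest transcript *Tnip3* had 26.7 and *Tnip1* 16.1, so their order changed with the gene model. *Cyld*, another deubiquitinase of the pathway, had 6.68, and *Otud7b* was the lowest with reads at 1.49.

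All 17 substrates and partners of A20 were above 10 CPM, with a median of 15.0 CPM per kilobase. Over all exons the highest were *Birc3* at 72.5, *Rbck1* at 62.8, *Birc2* at 62.7, *Traf2* at 39.8 and *Rnf31* at 30.8, all ubiquitin ligases or parts of them. By the longest transcript the kinase gene *Ikbkb*, at 41.0, was above *Rnf31*, at 35.7. *Malt1*, the protease known to cleave A20, had 3.08, the lowest value over all exons, but 8.69 by the longest transcript, where *Traf3* was the lowest at 3.61. *Tnfaip3* stood at 0.155 times the level of *Nfkbia* per kilobase (exact interval, 0.151 to 0.158), the gene of the inhibitor IκBα.

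The MAPK phosphatases *Dusp1* and *Dusp2* were similar to each other per kilobase. *Dusp1* (ENSMUSG00000024190.6, chromosome 17, 26505590 to 26508519) had 8384 reads and ranked at percentile 96.3, with a level of 267 CPM (261 to 273). *Dusp2* (ENSMUSG00000027368.6, chromosome 2, 127336159 to 127338376) had 5287 reads and ranked at percentile 94.1, with a level of 168 CPM (164 to 173). The ratio of *Dusp2* to *Dusp1* per kilobase was 1.04 (exact interval, 1.01 to 1.08), while by the exons inside the deposited interval *Dusp1* was the higher, at 99.0 against 84.0. The promoter of *Dusp1* held the cAMP response element letters TGACGTCA, found in 1.79% of all promoters, and *Dusp2* held none of the 6 motifs searched. The window of *Dusp1* is shown because it was the single brake with this element.
*Dusp1*, chr17:26508597-26508626, minus strand: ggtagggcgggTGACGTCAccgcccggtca

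Of the 10 MAPK phosphatases listed, all had reads and 6 were above 10 CPM, against 44.4% of all genes with reads. *Dusp5*, a nuclear phosphatase of ERK, was the highest at 225 CPM per kilobase, although 22.1% of its exon sequence lies opposite an exon of another gene. *Dusp2* was at 0.373 times that level (exact interval, 0.362 to 0.385). Next below *Dusp1* came *Dusp6* at 6.16, the cytoplasmic ERK phosphatase, *Dusp10* at 4.97 and *Dusp16* at 4.51. *Dusp9*, *Dusp7*, *Dusp4* and *Dusp8* ran from 1.79 down to 0.190. The inducible nuclear members other than *Dusp4* were thus the 3 highest of the family. Their substrates, the MAP kinases, were all below these 3, at 19.8 CPM per kilobase or less. The list medians were 5.07 for the 10 MAP kinases and 4.74 for the 10 phosphatases. Of the 10 MAP kinase genes 7 had reads, among them *Mapk14* (p38α) at 18.4 and *Mapk7* at 10.8 CPM per kilobase. *Mapk9* had 5.98 and *Mapk3* 5.46. *Mapk10*, *Mapk12* and *Mapk13* were listed at 0, and *Mapk8* had the lowest level of those with reads, 0.829.

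**Figure D3:**
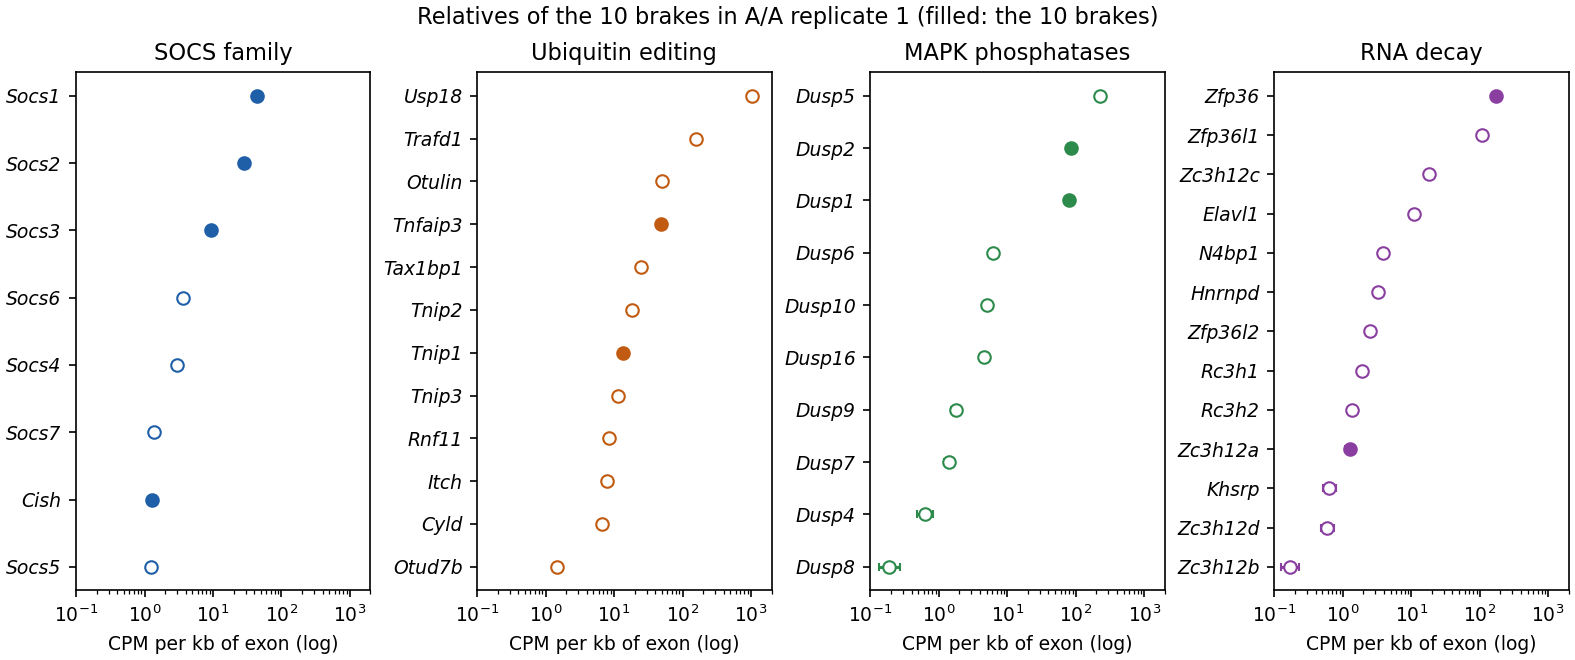
Levels of the 4 families in CPM per kilobase of exon (x axes, log scale) in A/A replicate 1, sorted within each panel, with bars for the counting interval. Filled points are the 10 brakes and open points their relatives, and *Rnf125*, listed at 0, is left out. *Zfp36* and *Zc3h12a* stand far apart in the panel of RNA decay, and *Dusp5*, *Dusp2* and *Dusp1* stand above the other phosphatases.

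The RNA decay factors held the highest and the lowest brake. *Zfp36* (ENSMUSG00000044786.6, chromosome 7, 28376784 to 28380253) had 19071 reads and a level of 607 CPM (599 to 616). *Zc3h12a* (ENSMUSG00000042677.7, chromosome 4, 125118423 to 125127840) had 115 reads and a level of 3.66 CPM (3.05 to 4.39). Per kilobase *Zfp36* was 138 times the level of *Zc3h12a* (exact interval, 115 to 167). This gap was far wider than the change that any gene model made to either gene. For *Zfp36*, 3.60% of exon bases lie opposite another gene's exons, and 4.21% of its 50-base windows were shared with other genes.

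Both genes have paralogs, and these did not follow the same order. *Zfp36l1* had 110 CPM per kilobase, but 55.9% of its exon bases overlapped exons on the opposite strand, and whether reads were counted by strand is not given in the sources used here. *Zfp36l2* had 2.46, so *Zfp36* was 71.1 times its level (exact interval, 63.1 to 80.4). Among relatives of Regnase-1, *Zc3h12c* (Regnase-3) was the highest at 18.2, *Zc3h12d* had 0.591 and *Zc3h12b* 0.170. *N4bp1*, a related endonuclease that restrains NF-κB dependent cytokines, had 3.90. *Rc3h1* and *Rc3h2*, the Roquin genes that share stem-loop targets with Regnase-1, had 1.91 and 1.38, and the intervals of *Rc3h2* and *Zc3h12a* overlapped. By the longest transcript *Rc3h2* had 3.02, above both *Rc3h1* and *Zc3h12a* (1.33). *Elavl1* (HuR), which stabilises AU-rich mRNAs and opposes tristetraprolin, had 10.8, and *Khsrp* had 0.634. All 13 genes of the list had reads and 8 were above 10 CPM, against 44.4% of all genes with reads. The promoter of *Zfp36* held 1 match to the CArG box of serum response factor, found in 1.63% of all promoters, while that of *Zc3h12a* held none of the motifs searched.

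Several brakes carry the AU-rich letters that tristetraprolin binds in their own mRNAs. The sequence after the stop codon was taken from 1 GENCODE M21 transcript for each gene, the one with the longest coding part. The nonamer TTATTTATT was present in 4 of the 10 brakes, or 40.0%, in 7 of 19 cytokine and related mRNAs known as decay targets, or 36.8%, and in 7.45% of 19082 coding genes. *Cish* had 2 overlapping copies, *Dusp1* had 2, and *Tnfaip3* and *Zfp36* had 1 each. Length differs between these sequences, so the shorter motif ATTTA was also counted per kilobase. The brakes had a median of 2.75, against 9.13 in the decay targets and 1.31 over all coding genes. *Dusp2* had the most among the brakes at 6.88 per kilobase, followed by *Dusp1* at 5.80 and *Zfp36* at 3.88, and *Socs1* and *Tnip1* had 0. The nonamers of *Zfp36* and *Dusp1* and 1 of *Cish* are shown, in capitals and in DNA letters, because they place *Zfp36* itself among the genes with the letters of its own product's target.
*Zfp36*, chr7:28376950-28376979, minus strand: tatgacgactTTATTTATTgtattaagatt
*Dusp1*, chr17:26506158-26506187, minus strand: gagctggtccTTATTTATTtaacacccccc
*Dusp1*, chr17:26505869-26505898, minus strand: gtttttacctTTATTTATTtttgtgtaggt
*Cish*, chr9:107301377-107301406, plus strand: tatacagtatTTATTTATTtattctccttg

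The presence of the nonamer did not sort the brakes by level. *Zfp36*, *Dusp1* and *Tnfaip3* were among the 4 highest per kilobase, and *Cish* was among the 2 lowest. Of the 6 brakes without the nonamer, *Dusp2* was the highest and *Zc3h12a* the lowest.

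**Figure D4:**
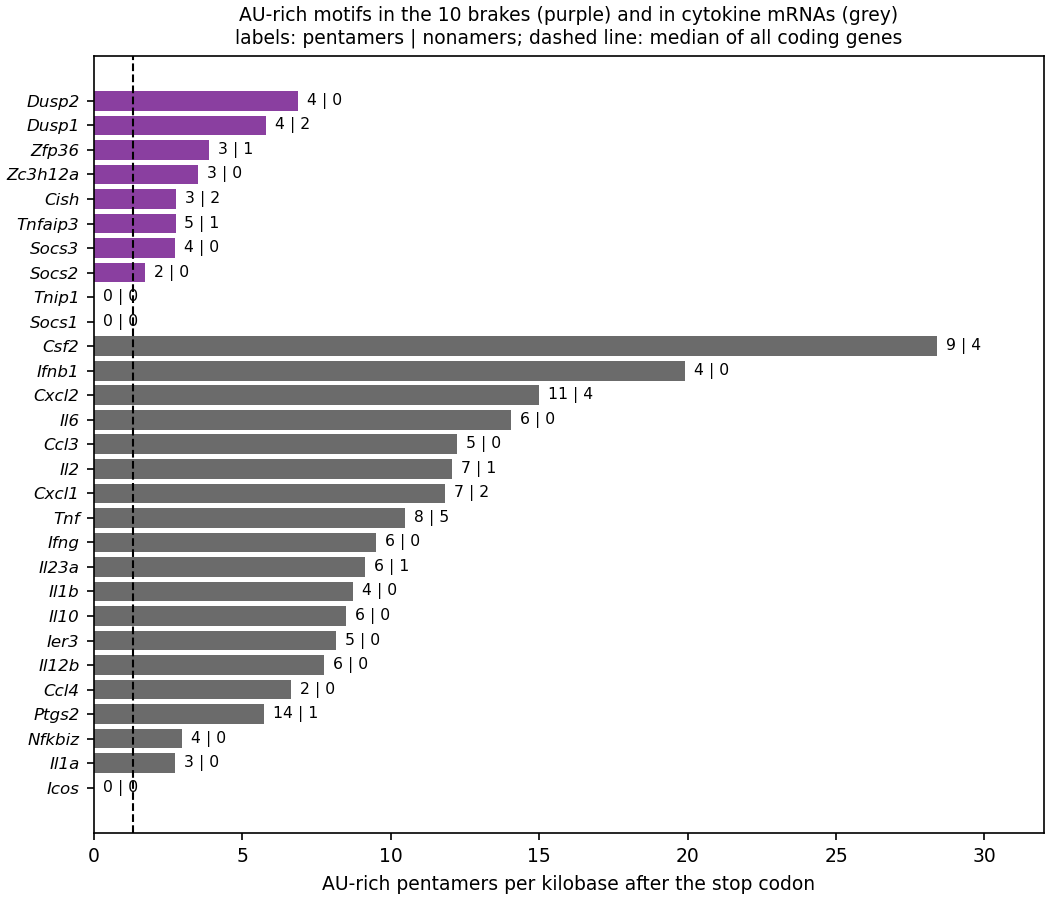
ATTTA pentamers per kilobase after the stop codon (x axis) for the 10 brakes (purple) and the 19 decay targets (grey), with the number of pentamers and of TTATTTATT nonamers beside each bar and a dashed line at the median of all coding genes (1.31). *Csf2* has the highest density, and 2 brakes, *Socs1* and *Tnip1*, and 1 target, *Icos*, have none. The *Icos* transcript used has only 106 bases after the stop codon.

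The mRNAs that tristetraprolin and Regnase-1 are known to target were themselves of mixed level. Of 19 such genes 16 had reads and 10 were above 10 CPM, against 44.4% of all genes with reads. Their median was 3.49 CPM per kilobase, against 1.90 over all genes with reads. The chemokines *Ccl4* and *Ccl3* had 266 and 180, *Il12b* had 150, *Ier3* had 57.9 and *Tnf* had 47.9. *Zfp36* was 3.65 times the level of *Tnf* per kilobase (exact interval, 3.50 to 3.81). *Il6*, a target of both factors, had 17.2. *Csf2*, *Il1a* and *Il2* were listed at 0, and *Il10* (10 reads), *Cxcl1* (9 reads) and *Il23a* (6 reads) were close to it. Thus the cytokine genes with the densest AU-rich sequence included both *Csf2*, at 0, and *Ifnb1*, at 18.2 CPM per kilobase.

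**Figure D5:**
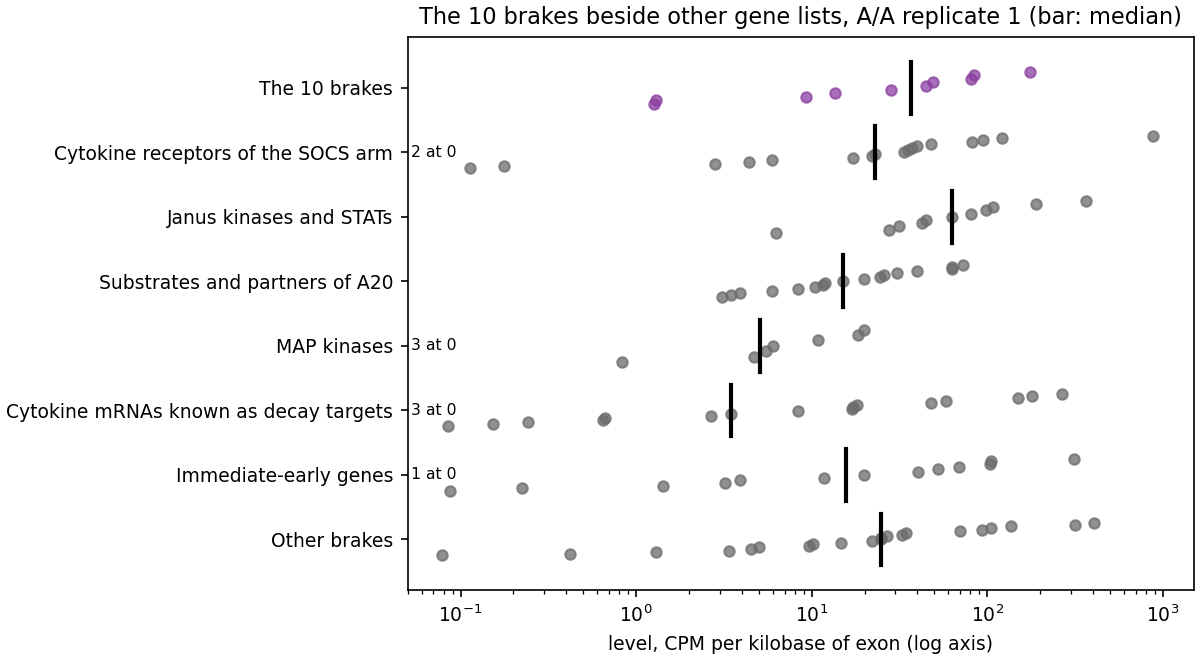
Levels in CPM per kilobase of exon (x axis, log scale) of the 10 brakes and of 7 other gene lists in A/A replicate 1. Each point is a gene, the bar is the median with genes at 0 included, and the number of genes at 0 is written at the left edge. The Janus kinases and STATs have the highest median (63.0) and the decay targets the lowest (3.49), with the brakes at 36.6.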

How the data were processed

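Sorted splenic pDCs stimulated with R848 were profiled by mRNA-Seq in 9 samples, and the values of A/A replicate 1 were analysed. The submitters' processing notes name HISAT2, StringTie and the builds mm8 and mm10, and the paper names DESeq2. The counting tool, the annotation and the use of strand are not given in the sources used here. The authors deposited 1 normalized signal value for each of 52550 genes, with GRCm38 coordinates and no stated unit. All values above 0 were whole multiples (within 0.01 of a read) of 1.19. With this step taken as 1 read, whole reads were recovered for 100% of them, 31408298 over all genes. Identifiers without their versions matched GENCODE M21 for 99.7% of genes and all 10 brakes, 8 of which had identical coordinates.

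Levels are CPM, with Wilson 95% intervals and a floor of 3 reads, and CPM per kilobase over the union of annotated exons. Ratios have exact Clopper-Pearson intervals of the 2 read counts. Promoters are from the RefSeq table (GRCm38.p6). The brakes and the lists were chosen with earlier results of these data known. Every brake is named, and of each other list up to 5 of the highest genes per kilobase, the lowest and those at 0, besides a few relatives named after their values were seen. Some genes and sequences are not reported here. With 1 library no test between groups was possible. Recovery was tested on 3 simulated libraries of 52550 genes, built as whole counts over 1 factor, and returned 100% of their reads. Libraries built this way check the calculation only. They cannot show that the deposited values have this form or that 1 step is 1 read. Python 3.11.15, numpy 2.4.6, scipy 1.17.1, pandas 2.3.3 and matplotlib 3.10.9 were used.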

Additional observations from a re-analysis of the deposited data

How the results depend on the processing

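No paired analysis was possible because levels come from 1 library. The median level of the 10 brakes was 149 CPM, 36.6 CPM per kilobase of exon, and 165 CPM when the 10 genes with most reads were left out of the total. The median percentile of 93.2 was 97.7 over all genes, 91.6 over genes with at least 10 reads, 90.4 over protein-coding genes with reads and 91.7 per kilobase. The first rises and the second falls by construction, as genes at 0 are added or genes with few reads removed. For the protein-coding genes the cause was not tested. Of the 10 brakes 5 kept their place in the order per kilobase with the longest transcript as the length, and 6 with the exons inside the deposited interval, an alternative chosen after seeing the data. All 10 kept it with exon bases free of other genes. With list genes at 0 left out, 5 of 11 list medians were higher by construction, and that of the MAP kinases went from 12.9 to 40.6 CPM. Depth limited *Zc3h12a*, whose 115 reads gave 3.05 to 4.39 CPM.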

Other observations

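Other brakes outside the 10 genes were also abundant in A/A replicate 1. Of 21 such genes, all had reads and 18 were above 10 CPM, against 44.4% of all genes with reads. Their median was 24.9 CPM per kilobase, against 1.90 over all genes with reads. *Ptpn6* (SHP-1), a phosphatase recruited by inhibitory receptors, was the highest at 404, followed by the inhibitors of NF-κB *Nfkbia* (316), *Nfkbie* (137) and *Nfkbib* (93.1), with *Atf3*, a repressor of cytokine genes, at 105. *Irak3* (IRAK-M), a brake on TLR signalling known from macrophages, was the lowest, with 9 reads and 0.0780 CPM per kilobase. Of 14 immediate-early genes, 13 had reads, from *Junb* at 314 CPM per kilobase, *Atf3*, *Ier5* at 104, *Jund* at 68.9 and *Btg2* at 52.3 to *Fosb* at 0.0867, and *Egr3* was listed at 0. For *Jund*, 52.6% of exon bases lie opposite exons of other genes.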
